A study of Mus musculus with 6 samples.

Results

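Mature miRNAs known from blood cells and endothelium were followed in mouse embryonic stem cells (ESCs). They were chosen by name, as rows of the deposited count table, and make up 10 of its 1907 mature miRNAs. The members are mmu-miR-142a-5p, mmu-miR-142a-3p, mmu-miR-150-5p, mmu-miR-155-5p, mmu-miR-223-3p, mmu-miR-451a, mmu-miR-144-3p, mmu-miR-486a-5p, mmu-miR-126a-3p and mmu-miR-126a-5p. Of these, 9 had at least 1 count and 8 passed the filter on low counts and were tested. The 2 that were not tested are miR-144-3p, with few counts, and miR-223-3p, with none.

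Small RNA was sequenced from the C57BL/6 ESC lines RB18 and RB20 in 3 media, which gave 6 libraries, 2 per medium, each from a pool of 3 cultures. All media held 1000 U/ml LIF, and the cells were kept without feeders. Serum medium held 15% fetal bovine serum and no inhibitor. The 2i medium was serum free, with the MEK inhibitor PD0325901 at 1 µM and the GSK3 inhibitor CHIR99021 at 3 µM, and the R2i medium was serum free with PD0325901 at 1 µM and the TGF-β receptor inhibitor SB431542 at 10 µM. Both lines had been derived in R2i, and the serum and 2i cells were obtained from them over at least 10 passages. The 2 libraries of a medium are therefore 2 cell lines, and their spread holds line, culture pool and sequencing together.

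Counts assigned to miRNAs totalled between 1041858 and 3593356 per library. In each medium RB18 was sequenced less deeply than RB20, so that line and depth cannot be told apart. Levels are given as CPM, counts scaled to the library size after TMM normalization. The ESC label was checked with 12 mature miRNAs of the miR-290 cluster, the major miRNA cluster of mouse ESCs. These 12, which leave out the b forms such as miR-291b, took between 33% and 42.9% of the counts. The 10 blood and endothelial miRNAs together took 0.426% and 0.416% in serum, 0.594% then 0.285% in 2i, and 0.262% and 0.157% in R2i (RB18 first). In serum and 2i, miR-142a-5p weighed most in this sum. Scaled to the library total without TMM, it held 2390 of 4262 and 2320 of 4165 CPM in serum (RB18 first). It held 4440 of 5938 and 1620 of 2852 CPM in 2i, and 705 of 2616 and 269 of 1567 CPM in R2i. The sum is therefore not a level of the list as a whole. In pooled cultures, fewer cells of a type and less RNA per cell cannot be told apart.

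A miRNA guides an Argonaute protein to messenger RNAs that pair with its seed, bases 2 to 8 from the 5′ end. One hairpin precursor can give a mature miRNA from its 5′ arm (5p) and another from its 3′ arm (3p). miR-142 is expressed throughout the blood lineages, miR-150 and miR-155 act in lymphocytes and in the immune response, and miR-223 is a miRNA of granulocytes and other myeloid cells. miR-144 and miR-451a are made from 1 transcript in red cell precursors, where miR-451a is cut by Argonaute 2 without Dicer, and miR-486 is abundant in the same lineage. miR-126 lies in Egfl7 and is a miRNA of endothelial cells.

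The mature sequences of 7 members were found by name in RefSeq (GRCm38.p6), and they are shown to make clear which arms were counted and that their seeds, in capitals, all differ. No other mature miRNA with both a RefSeq sequence and a row of counts had any of these 7 seeds. The sequence of miR-142b, from the strand opposite to miR-142a, is added because 16 of 18 aligned bases equal those of miR-142a-5p:
mmu-miR-142a-5p: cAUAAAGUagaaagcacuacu
mmu-miR-142a-3p: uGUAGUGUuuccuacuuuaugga
mmu-miR-142b: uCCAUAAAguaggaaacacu
mmu-miR-155-5p: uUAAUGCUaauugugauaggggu
mmu-miR-223-3p: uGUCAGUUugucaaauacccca
mmu-miR-451a: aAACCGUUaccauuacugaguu
mmu-miR-144-3p: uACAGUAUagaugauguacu
mmu-miR-126a-3p: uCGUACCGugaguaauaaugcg

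The hairpins of miR-142a and miR-451a are shown as well, because both arms of the former were members while the latter gives 1 mature miRNA that runs into the loop. Capitals mark the mature miRNAs within the RefSeq hairpins, which are 64 and 72 bases long:
Mir142: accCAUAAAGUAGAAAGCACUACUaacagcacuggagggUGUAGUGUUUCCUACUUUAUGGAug
Mir451a: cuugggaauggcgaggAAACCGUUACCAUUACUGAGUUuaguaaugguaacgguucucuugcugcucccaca

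On GRCm38, the build of the files, Mir142 lies at chr11:87756864-87756927 on the plus strand, in an intron of the noncoding gene Mir142hg and opposite to Mir142b. Mir144 (chr11:78073005-78073070) and Mir451a (chr11:78073170-78073241) are on the plus strand 99 bases apart, and Mir451b lies opposite to Mir451a. Mir155 (chr16:84714140-84714204, plus strand) overlaps an exon of Mir155hg, Mir150 (chr7:45121757-45121821, plus strand) overlaps no annotated gene, and Mir223 (chrX:96242817-96242926, plus strand) overlaps an exon of the noncoding gene F630028O10Rik. Mir126a (chr2:26591357-26591429, plus strand) overlaps an annotated exon of Egfl7 and lies opposite to Mir126b. Mir486 (chr8:23142555-23142682, plus strand) lies in an intron of Ank1, a gene of the red cell membrane skeleton, opposite to Mir3107, which RefSeq also lists as mir-486b.

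The counting notes used here do not give a strand setting. Among the antisense miRNAs, miR-142b had 6 counts over the 6 libraries, miR-451b had 1, miR-126b-3p had 6 and miR-126b-5p had 5. miR-486b-5p, opposite to miR-486a, had between 53 and 157 counts per library, more than miR-486a-5p in each of them.

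The members spanned the range from an abundant miRNA to none detected. By mean CPM over the 6 libraries, here scaled to the library total without TMM, miR-142a-5p ranked 57 of 1907, miR-126a-5p 98 and miR-150-5p 109. miR-142a-3p, miR-126a-3p and miR-155-5p followed at ranks 177, 188 and 234, with miR-486a-5p at 342, miR-451a at 458 and miR-144-3p at 613.

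In serum, miR-142a-5p was the member with the highest level, and its 2 libraries lay above those of miR-126a-5p and miR-150-5p, which overlapped each other. miR-142a-3p, miR-155-5p, miR-126a-3p and miR-486a-5p followed in that order without overlap between neighbours. In 2i, miR-142a-5p again lay above miR-126a-5p, which lay above miR-150-5p, while miR-150-5p, miR-142a-3p and miR-126a-3p overlapped as neighbours. In R2i the order changed: miR-126a-5p, miR-150-5p and miR-142a-5p overlapped at the top, and further down miR-142a-3p overlapped miR-155-5p above it and miR-486a-5p below it, which did not overlap each other. In 2i and R2i, miR-451a was the lowest of the tested members in every library.

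**Figure D1:**
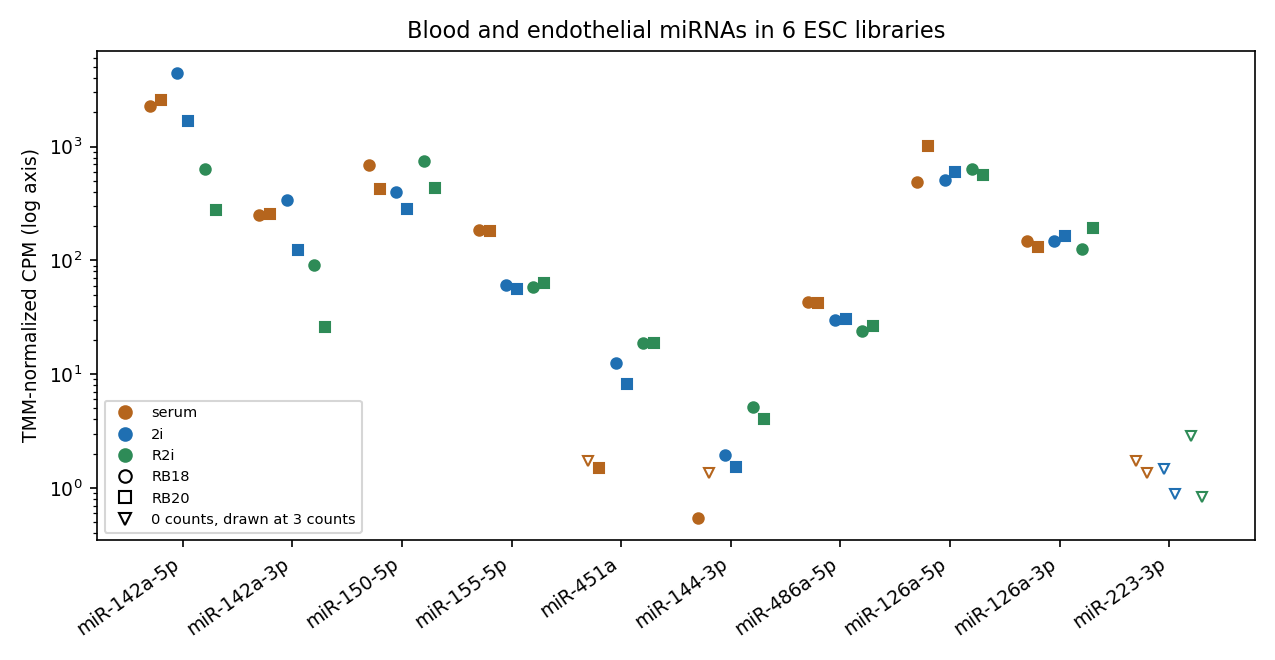
TMM-normalized CPM (log axis) of the 10 miRNAs in each of the 6 libraries, with the medium as colour and the cell line as marker. Open triangles stand for libraries with 0 counts and are drawn at the level of 3 counts. miR-142a-5p spans 276.5 to 4434 CPM, with both R2i libraries lowest, miR-155-5p is high in serum alone, miR-451a is near 0 in serum alone, and miR-223-3p has no counts.

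Comparisons used edgeR's quasi-likelihood test over 571 miRNAs, and "called" stands for an adjusted p (Benjamini-Hochberg) under 0.01 together with a change of more than 2-fold. Permutation of 2 libraries against 2 cannot give a two-sided p below 0.33, so the calls depend on the spread that edgeR pools over miRNAs. In 2i against serum, 1 of the 8 tested members was called higher (miR-451a) and 1 lower (miR-155-5p), where 16.8% of all tested miRNAs were called higher and 17.3% lower. In R2i against serum, 1 was called higher (miR-451a) and 2 lower (miR-142a-5p and miR-155-5p), beside 15.1% and 15.6% of all tested. A count of 1 or 2 of 8 is near these shares, and no direction is read from it for the list as a whole. miR-451a passed the filter on low counts only through its 2i and R2i libraries, the media in which it was high. Over the 8 members, the median log2 fold change against serum was -0.28 for 2i and -0.52 for R2i, and that of all tested miRNAs was -0.03 and -0.07.

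The comparison of 2i with R2i contrasts GSK3 inhibition with TGF-β receptor inhibition under the same MEK inhibition. edgeR called 0 of the 8 members, whereas 0.35% of all tested miRNAs were called higher in 2i and 0% lower. At an unadjusted p under 0.05 there were 2 members, both arms of miR-142a and both higher in 2i, where 18.2% of all tested miRNAs passed in either direction and 7.53% passed as higher. DESeq2 called 1 member (miR-142a-5p) beside 2.8% of all tested, and limma called 0 beside 0.35%. The median over the members was -0.05, beside 0.01 over all tested miRNAs.

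**Figure D2:**
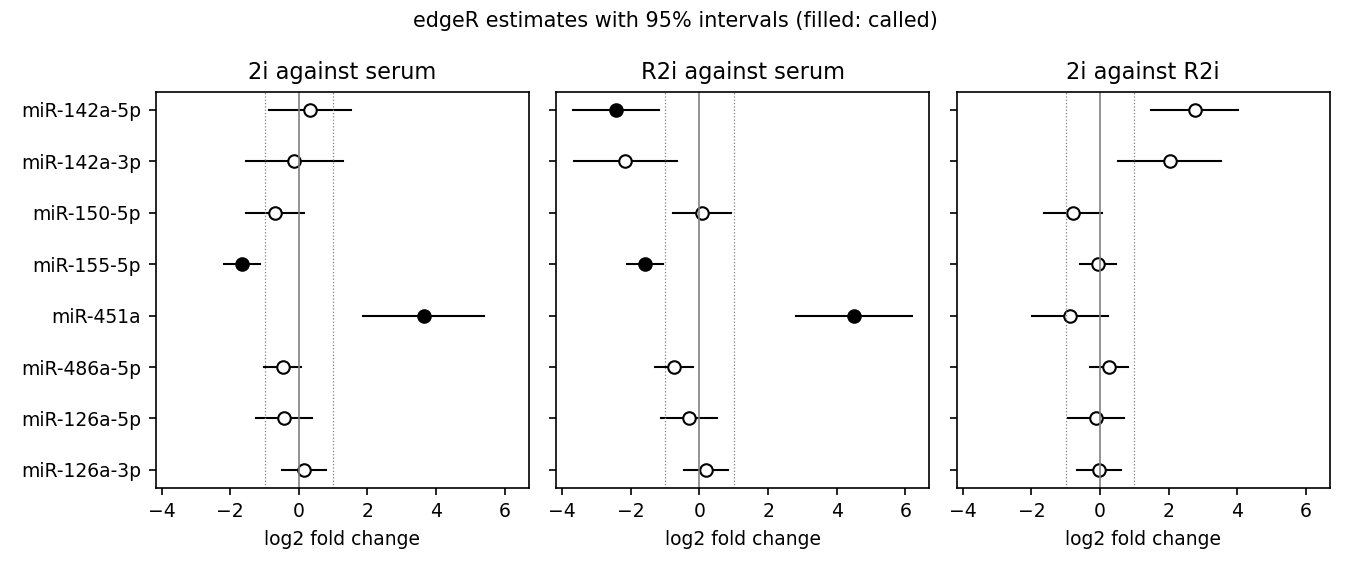
log2 fold changes (edgeR) of the 8 tested miRNAs in the 3 comparisons, with 95% confidence intervals as lines. Filled points are called at an adjusted p under 0.01 and more than 2-fold, and dotted lines mark the 2-fold limit. miR-155-5p and miR-451a are called in both media against serum and miR-142a-5p in R2i against serum, while no point is filled for 2i against R2i.

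miR-142a was high in serum and 2i and low in R2i, in both arms. miR-142a-5p was at 2277 CPM in RB18 and 2581 CPM in RB20 in serum, at 4434 and 1663 CPM in 2i, and at 629.4 and 276.5 CPM in R2i. Both R2i libraries lay below each of the other 4, whereas the serum libraries fell between the 2i libraries. The serum mean was 2429 ± 215 CPM, the 2i mean 3049 ± 1960 CPM and the R2i mean 452.9 ± 250 CPM (each ± SD of 2 libraries).

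miR-142a-5p fell in R2i against serum by 2.43 ± 0.54 (SE) on the log2 scale, a 5.38-fold difference (edgeR adjusted p = 0.00753, 95% interval -3.68 to -1.18). Within each line, the log2 change was -1.85 in RB18 and -3.22 in RB20. The adjusted p rose above the limit when serum RB18 (0.034, log2 change -2.39), serum RB20 (0.0314, -2.37) or R2i RB20 (0.0473, -1.95) was left out. Without R2i RB18 the change was -3.13. Over all 14 alternatives its adjusted p ranged from 5.86e-13 to 0.0473 and its log2 change from -3.13 to -1.95.

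In 2i against R2i, miR-142a-5p differed by 2.76 ± 0.55 (SE) on the log2 scale, or 6.76-fold (95% interval 1.49 to 4.02), and ranked 7 of 571 by p. Its edgeR adjusted p of 0.0714 missed the threshold. DESeq2 gave 2.68 with an adjusted p of 2.19e-06, and edgeR without the filter on low counts also called it, at 2.79 (adjusted p = 2.38e-15). That fit gave nearly the same SE for miR-142a-5p (0.32) and miR-155-5p (0.33), against 0.55 and 0.23 with the filter. The larger spread of miR-142a-5p between libraries thus counted for less in it. Over the 14 alternatives the adjusted p ranged from 2.38e-15 to 0.157 and the log2 change from 1.88 to 3.50. The change was similar in size in the lines, 2.82 in RB18 and 2.59 in RB20, where the difference between lines was not tested.

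Between 2i and serum, miR-142a-5p differed by 0.33 ± 0.51 (SE) on the log2 scale (edgeR adjusted p = 0.628), and the 95% interval from -0.86 to 1.51 includes changes of more than 2-fold upward. The lines went in opposite directions, 0.96 in RB18 and -0.63 in RB20.

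miR-142a-3p followed the 5p arm at a lower level. It was at 247.9 and 256.7 CPM in serum (RB18 first), 340.5 and 122.7 CPM in 2i, and 91.74 and 26.02 CPM in R2i. As for the 5p arm, both R2i libraries were below the other 4 and the serum libraries between those of 2i. In R2i against serum the log2 difference was -2.15 ± 0.65 (SE), or 4.45-fold, with an edgeR adjusted p of 0.0298 that misses the limit of 0.01. It was called without the filter on low counts, by DESeq2, with the serum and R2i libraries alone, and without 2i RB18 or R2i RB18. Without R2i RB18 the log2 difference was -3.27, and without R2i RB20 it was -1.46. Over its 14 alternatives the adjusted p ranged from 2.66e-09 to 0.124. The difference between 2i and R2i was 2.03 ± 0.65 (SE; edgeR adjusted p = 0.183). It ranged from 1.11 to 3.18 when 1 library was left out, and it was called without the filter on low counts (2.06), with an adjusted p from 2.23e-07 to 0.451 over its 14 alternatives. The difference between 2i and serum was -0.13 ± 0.61 (SE; edgeR adjusted p = 0.868).

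The arms come from 1 hairpin, so they are not independent evidence. Their log2 levels correlated at r = 0.971 over the 6 libraries, which share depth and scaling. The 5p arm made up most of the miR-142a counts in every library. Its share was 90.2% and 91.0% in serum, 92.9% then 93.1% in 2i, and 87.3% and 91.4% in R2i (RB18 first). The 2i shares were the highest, but the 95% Wilson interval of R2i RB20 (89.6% to 92.9%) overlapped that of 2i RB20 (92.5% to 93.8%). Such intervals cover counting error only, since reads are not independent molecules. For R2i RB18, with 734 and 107 counts of the arms, the interval was 84.9% to 89.4%.

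**Figure D3:**
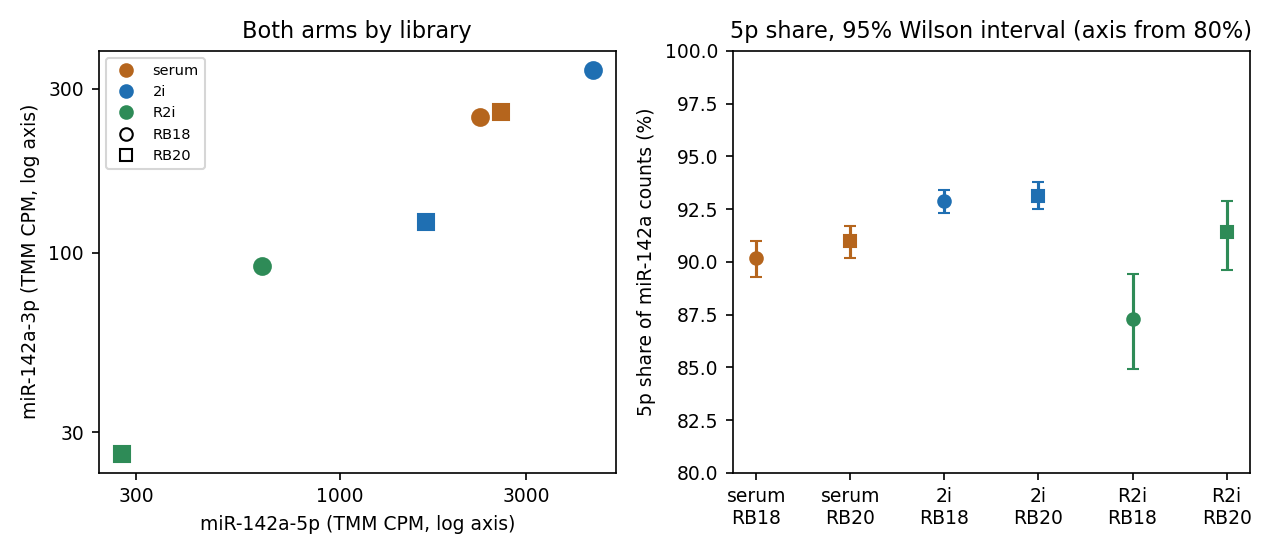
Left, miR-142a-3p against miR-142a-5p in TMM-normalized CPM (log axes), 1 point per library, with the medium as colour and the cell line as marker. Right, the 5p share of all miR-142a counts in percent with 95% Wilson intervals, on an axis that starts at 80%. The R2i libraries sit lowest on both arms, and the 5p share lies between 87.3% and 93.1%.

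Outside the 10 members, the 3 tested miRNAs whose log2 levels over the 6 libraries were most like miR-142a-5p were miR-19b-2-5p (r = 0.912), miR-186-3p (r = 0.911) and miR-1199-3p (r = 0.892). For miR-142a-3p they were miR-186-3p (r = 0.897), miR-212-3p (r = 0.863) and miR-18b-3p (r = 0.849). Most of these had few counts. miR-186-3p had between 5 and 18 per library, miR-1199-3p between 2 and 15, and miR-19b-2-5p between 14 and 55. None of them was called in any of the 3 comparisons.

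miR-155-5p was about 3-fold lower in both inhibitor media than in serum. It was at 183.4 and 181.9 CPM in serum (RB18 first), 60.72 and 56.16 CPM in 2i, and 58.31 and 63.76 CPM in R2i. The lowest serum library was thus far above the highest of the other 4, and the 2i and R2i libraries overlapped. The serum mean was 182.6 ± 1.06 CPM, against 58.44 ± 3.22 CPM for 2i and 61.03 ± 3.86 CPM for R2i (each ± SD of 2 libraries).

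miR-155-5p fell by 1.64 ± 0.23 (SE) on the log2 scale in 2i, or 3.13-fold (edgeR adjusted p = 0.000576), and by 1.58 ± 0.23 in R2i, or 2.98-fold (adjusted p = 0.000899). Both lines went down, with log2 changes of -1.59 and -1.69 in 2i and of -1.64 and -1.50 in R2i (RB18 first). The call in 2i was lost without 2i RB20 (log2 change -1.56, adjusted p = 0.0117), and over its 14 alternatives the adjusted p ranged from 4.37e-07 to 0.0117. The 2 inhibitor media differed by -0.07 (95% interval -0.59 to 0.46, adjusted p = 0.927), an interval within 2-fold in either direction. miR-155-3p, from the other arm, had between 0 and 4 counts per library.

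miR-150-5p was not called in any comparison. It was at 683.1 and 423.7 CPM in serum (RB18 first), 400.3 and 285.1 CPM in 2i, and 745.1 and 434.6 CPM in R2i. RB18 was the higher line in all 3 media. The 2i libraries lay below the other 4, though 2i RB18 was close to serum RB20. In both lines 2i was lower than serum, with log2 changes of -0.77 and -0.57, and lower than R2i, with -0.90 and -0.61. The edgeR estimate was -0.69 ± 0.37 (SE) for 2i against serum (adjusted p = 0.148) and -0.78 ± 0.37 for 2i against R2i (adjusted p = 0.307). For R2i against serum it was 0.09 (95% interval -0.76 to 0.93, adjusted p = 0.875). The 3p arm had between 7 and 35 counts per library, and its estimate of -1.23 for 2i against serum was not called (adjusted p = 0.0504).

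miR-223-3p had 0 counts in all 6 libraries, and so had miR-223-5p. Zero counts allow a level of up to 3 counts, about the one-sided 95% Poisson limit, which, scaled to the library total without TMM, was 0.835 CPM in the deepest library, R2i RB20, and 2.88 CPM in the shallowest, R2i RB18. Both arms of miR-511, a miRNA of macrophages and dendritic cells, were also at 0 counts throughout.

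miR-451a did not exceed 3 counts in serum and was present in both inhibitor media. The serum libraries had 0 and 3 counts (RB18 first), those of 2i had 26 and 27, and those of R2i had 22 and 66. On the scale of normalized CPM these were 0 and 1.49 in serum, 12.63 then 8.24 in 2i, and 18.86 and 18.87 in R2i. The groups did not overlap, and R2i was the highest.

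The serum libraries held 3 counts of miR-451a together, so the ratios rest on few reads. miR-451a passed the filter on low counts only through the 2i and R2i libraries, where it was high. Being tested thus depended on the same difference that was tested. As pooled counts per library total, the ratio to serum was 13.0 for 2i (exact 95% interval 4.21 to 65.0) and 25.2 for R2i (8.36 to 125), intervals that cover counting error only. edgeR called miR-451a in both comparisons, with a fitted log2 fold change of 3.63 ± 0.76 (SE; adjusted p = 0.0052) for 2i and 4.51 ± 0.73 (adjusted p = 0.00151) for R2i. With the cell line as a replicate block, the call in 2i was lost (adjusted p = 0.0134) and that in R2i was kept (0.0054).

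The 2i call of miR-451a was also lost with the serum and 2i libraries alone (adjusted p = 0.0181) and without serum RB18 (0.014), 2i RB18 (0.0123) or R2i RB20 (0.0115). Over its 13 alternatives the adjusted p ranged from 6.91e-07 to 0.0181. Without serum RB18 the log2 change was 2.85 in 2i and 3.72 in R2i. Without serum RB20 no serum count remained, so the fitted 7.60 and 8.48 give no fold. The call in R2i was kept under all 13 alternatives that tested miR-451a. With at least 10 counts in every library it was not tested. Except without the filter, being tested depended on the same difference, so these calls are not independent support. R2i against 2i gave a pooled ratio of 1.94 (1.37 to 2.79) by counting error, while edgeR, which adds the spread between libraries, estimated -0.88 ± 0.48 (SE) for 2i against R2i (adjusted p = 0.384).

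miR-144-3p, the neighbour of miR-451a on chromosome 11, had 1 count in serum RB18 and 0 in serum RB20. The 2i libraries had 4 and 5 counts and the R2i libraries 6 and 14 (RB18 first). It did not pass the filter on low counts. The order of its media was that of miR-451a, at a lower level. The pooled ratio to serum was 6.62 for 2i (exact 95% interval 0.917 to 290, which includes 1) and 17.2 for R2i (2.75 to 713). By pooled counts R2i was 2.60 times 2i (1.13 to 6.48). These intervals cover counting error only, not the spread between libraries. When edgeR was run without the filter, miR-144-3p was called in R2i against serum (log2 fold change 3.85 ± 1.19 (SE), adjusted p = 0.0067). It was not called in 2i against serum (2.53, adjusted p = 0.172) or in 2i against R2i (-1.32, adjusted p = 0.645). The 5p arm was counted 1 and 2 times in serum (RB18 first), 8 and 2 times in 2i, and 10 and 9 times in R2i. Its pooled ratio to serum was 5.45 in R2i (1.60 to 28.7, counting error only). edgeR without the filter gave 2.58 there and did not call it (adjusted p = 0.038).

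**Figure D4:**
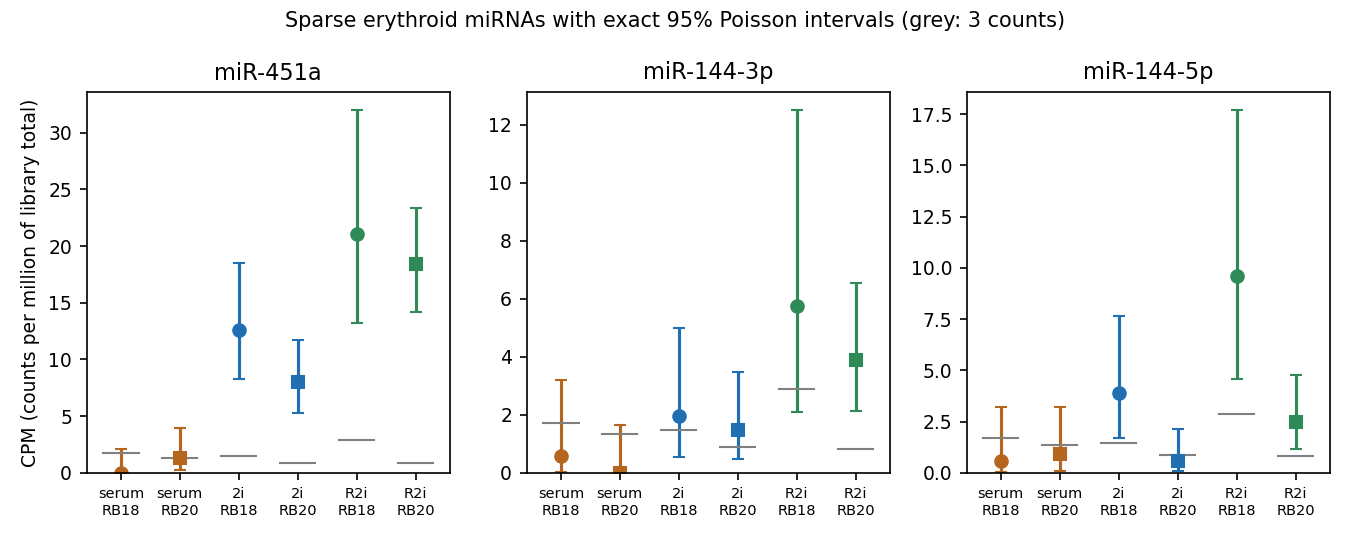
CPM of miR-451a, miR-144-3p and miR-144-5p as a share of the library total, 1 point per library, with exact 95% Poisson intervals as bars, the medium as colour and the cell line as marker. Grey bars mark the level of 3 counts. miR-451a is at 0 and 1.34 CPM in serum, 12.6 and 8.02 CPM in 2i, and 21.1 and 18.4 CPM in R2i, and the intervals of the miR-144 arms are wide.

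miR-486a-5p, the other red cell miRNA, had the opposite order of media. It was at 42.69 and 42.12 CPM in serum (RB18 first), 30.12 and 30.83 CPM in 2i, and 24.01 and 26.59 CPM in R2i. The 3 media did not overlap, with serum the highest and R2i the lowest. The difference between R2i and serum was -0.73 ± 0.24 (SE) on the log2 scale, or 1.66-fold, with an edgeR adjusted p of 0.0385, and was not called. 2i against serum gave -0.48 (adjusted p = 0.119).

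The hairpins of miR-486a and miR-486b lie on opposite strands of 1 site. Neither a strand setting nor a rule for reads that match both is given, so how reads were split between the rows is uncertain. These rows may therefore not be independent evidence. miR-486b-5p moved in the same direction, at 85.93 and 77.80 CPM in serum, 46.63 and 44.25 CPM in 2i, and 45.44 and 40.03 CPM in R2i. Its log2 differences were -0.85 in 2i (edgeR adjusted p = 0.0142) and -0.95 in R2i (adjusted p = 0.0102), neither called. miR-486a-5p held between 33.2% and 41.1% of the counts of both.

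The endothelial miR-126a was found in all libraries, with its 3p arm at similar levels. miR-126a-3p was at 147.2 and 132.3 CPM in serum (RB18 first), 148.6 and 163.0 CPM in 2i, and 125.2 and 192.1 CPM in R2i. The range of R2i held those of the other media. The log2 difference was 0.16 in 2i against serum (95% interval -0.48 to 0.79, edgeR adjusted p = 0.661), 0.19 in R2i against serum (-0.45 to 0.83, adjusted p = 0.625) and -0.03 in 2i against R2i (-0.67 to 0.60, adjusted p = 0.977). All 3 intervals lie within 2-fold.

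miR-126a-5p was at 487.1 and 1010 CPM in serum (RB18 first), 506.6 and 598.8 CPM in 2i, and 639.6 and 567.3 CPM in R2i. Serum RB20 stood above the other 5 libraries, which lay between 487.1 and 639.6 CPM. The estimates were -0.44 for 2i against serum (edgeR adjusted p = 0.33), -0.31 for R2i against serum (adjusted p = 0.519) and -0.13 for 2i against R2i (adjusted p = 0.91). The 95% intervals against serum, -1.25 to 0.38 for 2i and -1.13 to 0.50 for R2i, reached past 2-fold downward. That of 2i against R2i, -0.94 to 0.69, lay within 2-fold. Without serum RB20 the comparisons with serum turned to 0.13 and 0.26.

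The 5p arm made up most of the miR-126a counts as well, with a share of 76.8% and 88.4% in serum, 77.3% then 78.6% in 2i, and 83.6% and 74.7% in R2i (RB18 first). In this pair no medium stood apart from the others. Outside the members, the tested miRNAs most like miR-126a-3p over the 6 libraries were miR-20a-3p (r = 0.925), miR-26a-5p (r = 0.916) and miR-351-5p (r = 0.890), of which none was called in any of the 3 comparisons.

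The change within each line shows which members rest on both lines. miR-155-5p, miR-486a-5p and miR-150-5p lay close to the line of equality in all 3 comparisons, and the arms of miR-142a lay close to it in 2i against R2i. Both arms of miR-142a fell further in RB20 than in RB18 in R2i against serum, and took opposite signs in 2i against serum.

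**Figure D5:**
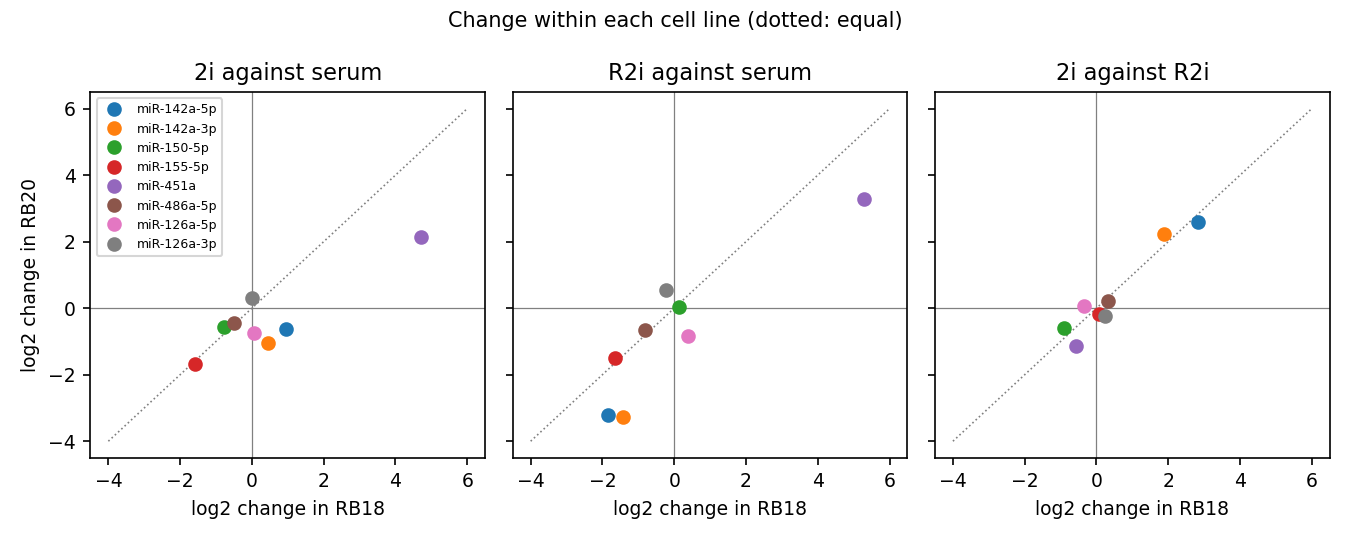
log2 change of the 8 tested miRNAs in RB20 (vertical axis) against that in RB18 (horizontal axis) for the 3 comparisons, from TMM-normalized CPM with 0.5 CPM added, with the dotted line at equal change. Points in the lower right quadrant, such as miR-142a-5p in 2i against serum (0.96 and -0.63), went up in RB18 and down in RB20. miR-451a in RB18 rests on a serum library with 0 counts.

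A list of 14 other mature miRNAs of blood and endothelium was counted beside the members, and 8 of them were tested. In 2i against serum and in 2i against R2i, edgeR called 0 of the 8. In R2i against serum it called 1, lower. Of all tested miRNAs, 195, 175 and 2 of 571 were called in 2i against serum, R2i against serum and 2i against R2i. At an unadjusted p under 0.05 there were 2 of the 8 in 2i against serum, 2 in R2i against serum and 1 in 2i against R2i, beside 57.6%, 49.6% and 18.2% of all tested. The median log2 fold change of the 8 was 0.04, -0.19 and 0.23 in 2i against serum, R2i against serum and 2i against R2i. Their summed level, scaled to the library total without TMM, was 1405 and 1179 CPM in serum, 1432 and 1403 CPM in 2i, and 1346 and 1164 CPM in R2i, so that the media overlapped.

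The miRNA called was miR-146a-5p, which acts in the innate immune response. It was at 452.1 and 424.2 CPM in serum (RB18 first), 279.3 and 211.8 CPM in 2i, and 84.03 and 112.9 CPM in R2i. The media did not overlap and R2i was the lowest, as it was for both arms of miR-142a. miR-146a-5p fell by 2.14 ± 0.28 (SE) on the log2 scale in R2i against serum, or 4.42-fold (edgeR adjusted p = 0.00055). Its 2i values differed from serum by -0.84 (adjusted p = 0.0311) and from R2i by 1.31 (adjusted p = 0.0714).

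miR-342-3p, a miRNA of lymphocytes within the gene Evl, pointed the other way. It was at 340.4 and 240.8 CPM in serum, 533.8 and 505.7 CPM in 2i, and 543.6 and 518.7 CPM in R2i. Its log2 difference from serum was 0.84 in 2i (edgeR adjusted p = 0.0261) and 0.87 in R2i (adjusted p = 0.0264), and it was called in neither. The endothelial pair miR-221-3p and miR-222-3p stayed between 75.48 and 100.6 CPM and between 45.44 and 85.46 CPM, and neither was called.

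Markers of other cells were counted in the same libraries. The 7 miRNAs of fibroblasts and mesenchyme, on the same scale, summed to 1514 and 1849 CPM in serum, 3348 and 3570 CPM in 2i, and 2711 and 2370 CPM in R2i. Of these, 5 were tested and edgeR called 0 in each comparison, with 2, 1 and 1 at an unadjusted p under 0.05 in 2i against serum, R2i against serum and 2i against R2i, beside the same 57.6%, 49.6% and 18.2% of all tested and the 195, 175 and 2 of 571 called. miR-214-5p was at 0 counts in 5 of 6 libraries and miR-214-3p had at most 6. On the same scale, most of the sum of the 7 was miR-143-3p in every library. It was at 1380 and 1690 CPM in serum, 3110 and 3290 CPM in 2i, and 2370 and 2150 CPM in R2i. The sum of the 7 was lowest in serum, where miR-155-5p was highest and miR-451a lowest. The part of this sum in those results was not tested.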

How the data were processed

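The authors trimmed, aligned and assigned reads to mature miRNAs and deposited whole-number counts for 1907 miRNAs in 6 libraries, and log2 values for the 1233 with a count, which equal log2(count / size factor + 1). The submitters' processing notes name FastQC 0.11.5, cutadapt 1.3, Bowtie 1.1.2, featureCounts 1.5 and mm10 (GRCm38).

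The counts were tested with edgeR 4.0.16 (R 4.3.3) using TMM, filterByExpr (minimum count 10, minimum total 15) and 1 coefficient per medium, without a line term. Standard errors are the log2 fold change over the square root of F. The test was tried on simulated data. Same-named lines pair the libraries by design, a pairing that the main test did not use. Differences of RB20 from RB18 correlated only weakly between media over 571 miRNAs. The values were 0.211 (serum and 2i), 0.243 (2i and R2i) and -0.128 (serum and R2i).

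Named are the 10 members, their partner arms and relatives, the lists of marker miRNAs, and the 3 tested miRNAs outside the members with the highest r with miR-142a-5p, miR-142a-3p and miR-126a-3p. Members and lists were chosen with earlier results of these data known. Alternatives used DESeq2 1.42.0, limma 3.58.1 on the log2 values, other filters, limits and scaling, a line block, and fewer libraries. Sequences are from RefSeq (GRCm38.p6, 7 of 10 members matched) and positions from GENCODE M21. Python 3.11.15, pandas 2.3.3, scipy 1.17.1 and matplotlib 3.10.9 were also used.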

Additional observations from a re-analysis of the deposited data

Results flagged for a closer look

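The cell lines moved in opposite directions in 8 comparisons of single members, each with 1 library per line and medium, so that the difference was not tested. The values are log2 changes in RB18 and then RB20, followed by their difference (RB20 minus RB18).

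For miR-142a, both arms did so in 2i against serum. miR-142a-5p changed by 0.96 and -0.63, a difference of -1.59. The change of miR-142a-3p was 0.46 and -1.06, a difference of -1.52.

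For miR-126a-5p, the lines parted in all 3 comparisons. In 2i against serum the changes were 0.06 and -0.75 (difference -0.81), in R2i against serum 0.39 and -0.83 (difference -1.22), and in 2i against R2i -0.34 and 0.08 (difference 0.42). The serum RB20 library, at 1010 CPM, enters the first 2 of these.

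miR-126a-3p changed by -0.23 and 0.54 in R2i against serum (difference 0.77) and by 0.25 and -0.24 in 2i against R2i (difference -0.49). miR-155-5p changed by 0.06 and -0.18 in 2i against R2i (difference -0.24), where the 95% interval of the pooled estimate was -0.59 to 0.46.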

How the results depend on the processing

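Of all tested miRNAs, 195 of 571 were called in 2i against serum, and 128 of 402 when at least 10 counts were required in every library. For 2i against R2i the 2 calls became 25 without the filter, 1 with at least 10 counts in every library, 0 with the replicate block, 16 by DESeq2, 0 with the 2 media alone, and 0 to 3 when 1 library was left out. The members called in 2i against serum fell from 2 to 1 with at least 10 counts in every library, where miR-451a is not tested. They also fell to 1 with the replicate block (all miRNAs 177 of 571 called) and with the 2 media alone (169 of 549). In R2i against serum, 3 became 5 without the filter (all miRNAs 223 of 1233 called) and 5 at an adjusted p under 0.05 with no fold limit (238 of 571), from 175 of 571. The members called there were 4 by DESeq2 (187 of 571) and with the 2 media alone (190 of 549). With at least 10 counts in every library they fell to 2 (119 of 402). In 2i against R2i, 0 members became 2 without the filter (all miRNAs 25 of 1233 called) and 1 by DESeq2 (16 of 571). Without the filter the edgeR SE of miR-142a-5p was 0.32 in 2i against R2i and in R2i against serum, against 0.55 and 0.54 with it. That of miR-142a-3p was 0.34 in both, against 0.65 with the filter. The replicate block changed no other member's call. Only leaving out a library turned a sign, in members not called, and log2 changes then ranged as follows. In 2i against serum they were -1 to 0.46 (miR-142a-3p), -0.51 to 0.89 (miR-142a-5p) and -0.76 to 0.13 (miR-126a-5p). In R2i against serum they were -0.36 to 0.59 (miR-150-5p), -0.16 to 0.46 (miR-126a-3p) and -0.63 to 0.26 (miR-126a-5p). In 2i against R2i they were -0.11 to 0.02 (miR-155-5p), -0.27 to 0.33 (miR-126a-3p) and -0.24 to 0 (miR-126a-5p). A medium left with 1 library was assumed to vary like the others. Fitting 2 media alone moved the median of all miRNAs by 0.142 in R2i against serum, and library totals by 0.098. The cause of these changes was not tested. Depth limits miR-451a, miR-144-3p and miR-223-3p.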
